A study of Acipenser transmontanus and Acipenser medirostris with 18 samples.

Results

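PB.23354 and PB.25257 are 2 keratin loci of sturgeon, out of 13249 loci with full-length transcripts in the deposited table, and both were abundant in dissected epithelial tissues and nearly missing from cells grown out of such tissues. A locus here is the set of all transcripts that share the first fields of the PacBio transcript name. Both loci were selected on these measured values, that is on their low share in cultures against their share in tissues, so their levels in those groups are a description and carry no test. PB.23354 comprises 12 transcripts with 1764 counts, of which 11 are named keratin in the table and 1 transcript with 3 counts is unnamed. PB.25257 comprises 6 transcripts with 5519 counts, and all 6 are named keratin. The table does not say whether either is a type I or a type II keratin. The study gave the sequences it submitted from PB.25257 the name KRT50kDa-like.

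Keratins build the intermediate filaments of epithelial cells. Each filament is assembled from pairs of an acidic type I and a basic type II keratin, and it is anchored at desmosomes, which give an epithelial sheet its mechanical strength. In mammalian epidermis the keratins of dividing basal cells differ from those of the layers above, and mammalian keratinocytes in culture make some keratins that resting epidermis lacks. White and green sturgeon skin and mouth lining are stratified squamous epithelia that do not form a dead cornified layer.

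The data are Iso-Seq libraries, in which PacBio sequencing reads cDNA molecules from end to end, and a count is the number of full-length reads assigned to a transcript. The white sturgeon (Acipenser transmontanus) epithelial cultures number 5, of which 3 came from the mouth rim and 2 from skin, and mouth rim culture 4 came from a dodecaploid fish. The green sturgeon (A. medirostris) epithelial cultures number 6, of which 2 came from the upper palate, 2 from the ampullae of Lorenzini (the electrosensory pits of the snout), 1 from the mouth rim and 1 from the esophagus. A further green library holds cultured fibroblasts and adipocytes, and 6 libraries are white sturgeon tissues, 1 each from mouth rim, dorsal skin, upper palate, ampullae of Lorenzini, esophagus and barbel. All fish but the dodecaploid one were octoploid by their labels. White cultures were started from pieces of tissue, and green cultures from pieces that had first been exposed to trypsin. The primary cultures grew in a medium that contained serum, growth factors, hydrocortisone and the rho kinase inhibitor Y27632. Epithelial cells were at first supported by a layer of feeder cells. These additives and feeder cells thus go with growth in culture. Tissues were not grown in this way but were carried to the laboratory in culture medium. The paper does not state how dense the cultures were when RNA was taken. There is no green tissue library, so green cultures can be set only against white tissues, where species and growth in culture cannot be told apart. Labels do not say which fish gave which library, and p-values therefore measure the spread between libraries only. Numbers after the site, as in mouth rim culture 1, are the sample numbers of the labels.

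Library totals ran from 90002 to 129568 counts in white cultures, from 124136 to 302286 in green cultures and from 29797 (esophagus) to 204203 (barbel) in tissues, and the fibroblast and adipocyte library held 243012. A single count thus stood for 0.000331% to 0.00111% of a library in epithelial cultures and for 0.000490% to 0.00336% in tissues. Transcripts without a protein name held 1.59% to 4.57% of the counts in epithelial cultures and 4.07% to 34.8% in tissues, with the highest value in the esophagus. Markers of epithelium other than keratin covered 14 loci of desmosomes, plakins and adhesion molecules, 3 of them at 0 in tissues. They summed to 0.685% to 1.31% of a white culture, 0.0761% to 0.297% of a green culture and 0.383% to 2.03% of a tissue. The green cultures thus all lay below the tissues, and the white cultures overlapped with them. The fibroblast and adipocyte library had 0.00535%. Connective tissue markers (9 loci) summed to 0.0330% to 0.775% in epithelial cultures, 0.0302% to 0.135% in tissues and 3.59% in the fibroblast and adipocyte library. Libraries of 1 group differed from each other by more than sampling noise, with a lowest chi-square of 2.30 per degree of freedom (white skin cultures 2 and 3). Each was counted as a library of its own. Amplified reads are not independent, so this cannot exclude that some libraries came from the same fish or culture.

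PB.23354 was close to undetectable in cells grown in culture. In white cultures it had 1 count in mouth rim culture 1, 1 count in skin culture 3, and 0 counts in mouth rim cultures 4 and 5 and in skin culture 2. In green cultures it had 10 counts in ampullae culture 5, 9 in the esophagus culture, 2 in the mouth rim culture, 1 in upper palate culture 4 and 0 in upper palate culture 1 and ampullae culture 6. In white tissues it had 355 counts in mouth rim, 329 in dorsal skin, 332 in upper palate, 374 in ampullae, 264 in esophagus and 86 in barbel. No culture came near any tissue: the highest culture, green ampullae culture 5, stood at 0.00331% of its library and the lowest tissue, barbel, at 0.0421%.

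As a share of all counts, PB.23354 averaged 0.000429% ± 0.000588 in white cultures (SD, n = 5), 0.00132% ± 0.00157 in green cultures (SD, n = 6) and 0.399% ± 0.286 in tissues (SD, n = 6). Summed over libraries, white cultures held 2 of 555830 counts and tissues 1740 of 640951, a share 754-fold lower in the cultures, with an exact 95% counting interval of 209 to 6235. Green cultures held 22 of 1294622 counts, 160-fold lower than tissues (interval 105 to 256). These intervals and those below cover counting error only and leave out the spread between libraries, since amplified cDNA reads are not independent molecules. The white mean rests on 2 counts and was 0.000259% without skin culture 3 and 0.000278% without mouth rim culture 1. In the 3 white cultures and 2 green cultures without a count, 3 counts is the limit that a 0 allows, which is at most 0.00261% and 0.00242% of a library.

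PB.25257 was also much lower in culture than in tissue, but it did not vanish. White mouth rim culture 1 had 24 counts, skin culture 2 had 6, skin culture 3 had 4, and mouth rim cultures 4 and 5 had 0. Green ampullae culture 5 had 288 counts, the esophagus culture 57, ampullae culture 6 had 56, the mouth rim culture 18, upper palate culture 1 had 11 and upper palate culture 4 had 7. White tissues had 1258 counts in mouth rim, 1092 in ampullae, 818 in barbel, 755 in dorsal skin, 701 in upper palate and 424 in esophagus. Every green culture thus held some PB.25257, whereas 2 of the 5 white cultures held none, and the culture and tissue libraries again did not overlap: the highest culture share was 0.0953% (green ampullae culture 5) and the lowest tissue share 0.401% (barbel).

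Mean PB.25257 shares were 0.00678% ± 0.0103 in white cultures (SD, n = 5), 0.0297% ± 0.0350 in green cultures (SD, n = 6) and 0.961% ± 0.427 in tissues (SD, n = 6). Over summed counts, 34 in white cultures against 5048 in tissues made the share 129-fold lower (counting interval 92.0 to 186), and 437 counts in green cultures made it 23.3-fold lower (21.2 to 25.8). Single libraries carried much of both culture means. Without mouth rim culture 1 the white mean was 0.00227% ± 0.00262 (n = 4), and without ampullae culture 5 the green mean was 0.0165% ± 0.0156 (n = 5). Neither locus had a count in the 243012 of the fibroblast and adipocyte library, a limit of 0.00123% for each.

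**Figure D1:**
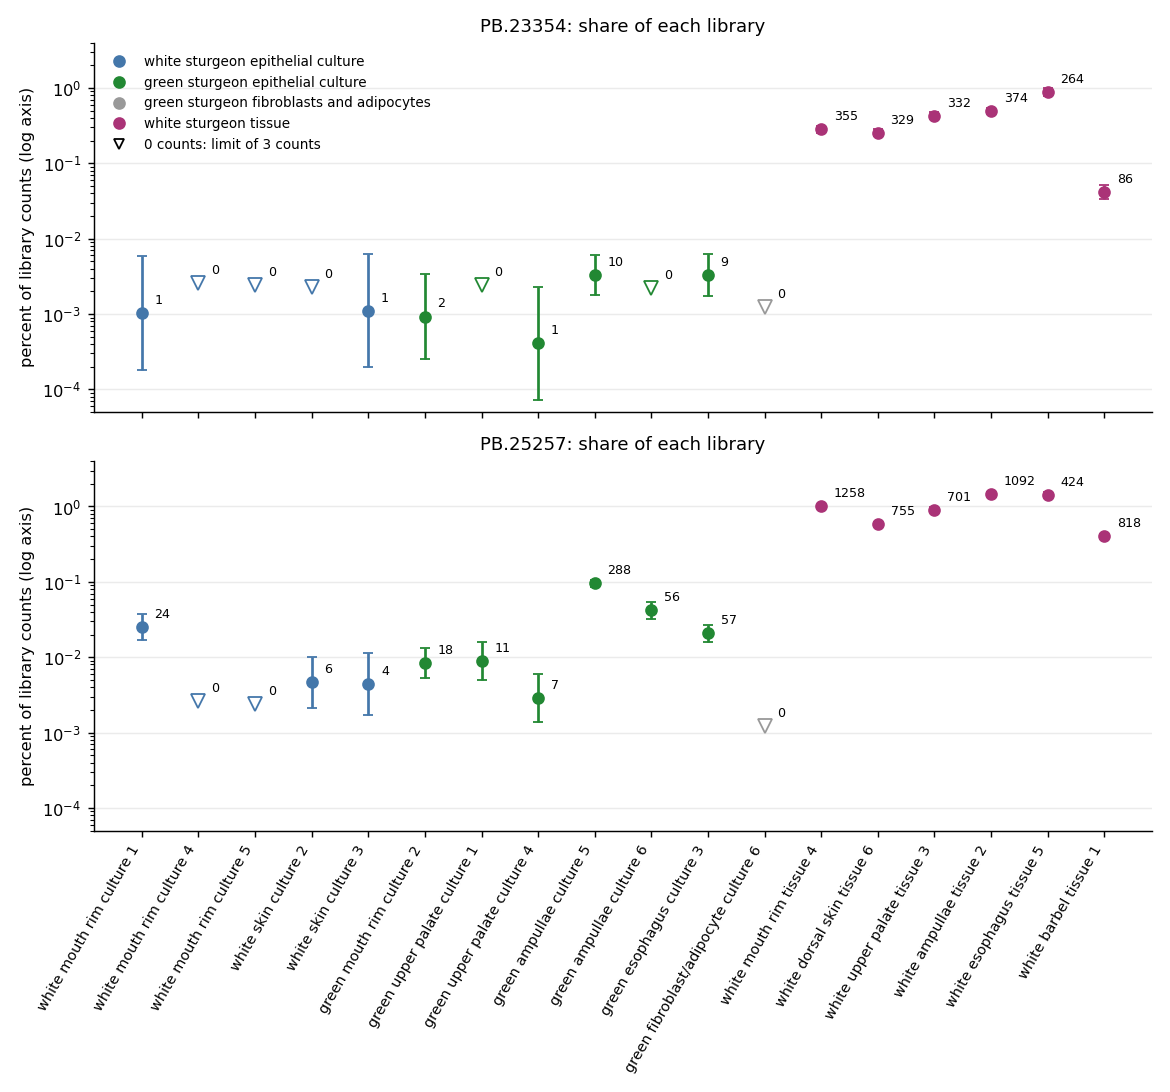
Share of PB.23354 (top) and PB.25257 (bottom) in each of the 18 libraries, as percent of library counts on a log axis, with Wilson 95% counting intervals and the number of counts printed beside each point. Open triangles mark libraries with 0 counts, drawn at the limit of 3 counts. The tissue points, at 0.0421% to 0.886% for PB.23354 and 0.401% to 1.45% for PB.25257, all lie above every culture point.

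The tissues themselves differed in both loci. PB.23354 was highest in esophagus at 0.886% (Wilson 95% interval 0.786 to 0.999), followed by ampullae at 0.496% (0.449 to 0.549), upper palate at 0.428% (0.384 to 0.476), mouth rim at 0.283% (0.255 to 0.314), dorsal skin at 0.256% (0.230 to 0.285) and barbel at 0.0421% (0.0341 to 0.0520), a range of 21.0-fold. Ampullae and upper palate were neighbours whose intervals overlapped, and so were mouth rim and dorsal skin. Esophagus and barbel each stood apart from their neighbour by more than counting error. With 1 library per site there is no measure of the spread between fish.

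PB.25257 followed a similar order over a narrower range of 3.62-fold. It was 1.45% in ampullae (1.37 to 1.54) and 1.42% in esophagus (1.29 to 1.56), then 1.00% in mouth rim (0.948 to 1.06) and 0.904% in upper palate (0.839 to 0.973), then 0.588% in dorsal skin (0.547 to 0.631) and 0.401% in barbel (0.374 to 0.429). The intervals of ampullae and esophagus overlapped, as did those of mouth rim and upper palate. Across the 6 tissues the log2 shares of both loci had a Pearson r of 0.904 and a Spearman rho of 0.886, given as a description of 6 libraries in which both values share the same total.

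The balance between the loci changed with the site. PB.25257 outnumbered PB.23354 in every tissue, by 1.61 counts to 1 in esophagus, 2.11 in upper palate, 2.29 in dorsal skin, 2.92 in ampullae, 3.54 in mouth rim and 9.51 in barbel. The barbel stood apart at the PB.25257 end, because its PB.23354 share was so low. In green ampullae culture 5, where both loci had 10 or more counts, the balance was 28.8 counts of PB.25257 to 1 of PB.23354. Counts are not divided by transcript length, and lengths were not at hand, so levels of different loci are compared as numbers of full-length reads.

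Site by site, the tissue exceeded the cultures of that site throughout. The skin cultures are labelled only as skin, without a body region, and were set against dorsal skin tissue. For PB.25257 the tissue share was 21.1 times the mean of the 2 cultures at the ampullae, 68.3 times the single culture from the esophagus, 121 times the mean of the 4 cultures of the mouth rim, 130 times that of the 2 skin cultures and 154 times that of the 2 upper palate cultures. The ampullae had the smallest gap, the highest PB.25257 shares among cultures (0.0953% and 0.0418%) and the highest among tissues (1.45%). For PB.23354 the ratios were 270 at the esophagus (9 counts in 1 culture) and 300 at the ampullae (10 counts in 2 cultures). They were 461 at the skin (1 count in 2 cultures), 576 at the mouth rim (3 counts in 4 cultures) and 2099 at the upper palate (1 count in 2 cultures). At the ampullae, upper palate and esophagus the cultures were green and the tissue white, and 1 of the 4 mouth rim cultures was green too. White cultures alone gave ratios of 121 for PB.25257 and 820 for PB.23354 at the mouth rim (3 cultures, with 24 counts and 1 count in all), and the skin cultures were both white. At those 2 sites the tissues averaged 0.269% for PB.23354 and 0.795% for PB.25257, against the white culture means above. No barbel culture was sequenced.

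Fits across all loci place these differences on a common scale. Counts per locus were fitted with edgeR's quasi-likelihood model after TMM scaling, which evens out libraries dominated by a few genes, and fold changes are log2 of culture over tissue. In white cultures against white tissues PB.23354 had a log2 fold change of -10.11 ± 1.02 (SE) and PB.25257 of -7.60 ± 0.99. Of the 1863 loci tested there, 29.4% were called lower and 27.5% higher at an adjusted p (Benjamini-Hochberg) under 0.05, and 11.2% were lower with no overlap between the groups. Both keratin loci were lower with no overlap, which is what they were chosen for, so nothing is read from it. Without white mouth rim culture 1 the value of PB.25257 was -9.05.

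In green cultures against white tissues, which share their tissue libraries with the comparison before, PB.23354 had a log2 fold change of -8.33 ± 0.88 and PB.25257 of -5.32 ± 0.79. Both were lower with no overlap between the groups, as were 9.81% of the 1804 loci tested; 24.4% of loci were called lower and 26.6% higher. Without green ampullae culture 5 these values were -8.91 and -6.33, and without any filter on low counts they were -7.46 and -4.52. With no TMM scaling the balance of all calls shifted, with 59.7% of calls higher in white cultures against 48.3% with TMM, and 62.5% of calls higher in green cultures against 52.2% with TMM, and the median log2 change of all loci moved by more than 0.1, but PB.23354 and PB.25257 stayed far below that median at -9.71 and -7.17 in white and -8.04 and -5.08 in green cultures.

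Green cultures held more PB.25257 than white cultures, with a log2 fold change of 2.13 ± 0.99 (mean shares 0.0297% against 0.00678%), but the libraries overlapped. The value was 3.74 without white mouth rim culture 1 and 1.22 without green ampullae culture 5, so single libraries set its size. The white cultures took part in the choice of the locus, and no p is given. PB.23354 was too rare for this fit, at 22 counts in green and 2 in white cultures. In the same fit 27.8% of 2125 loci were called higher and 29% lower in green cultures. Site goes partly with species here, since the mouth rim alone was cultured from both. By the numbering, green ampullae culture 6 belongs with the white cultures, and the other green cultures form a separate set. That set thus goes with species for all other green cultures.

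Sex could be compared among green cultures, which the choice of the loci did not use. PB.25257 averaged 0.0127% ± 0.00705 in the 3 male cultures and 0.0491% ± 0.0654 in the 2 female cultures (SD), and a two-sided exact permutation test of the difference gave p = 0.8. PB.23354 averaged 0.00141% ± 0.00169 in male and 0.00186% ± 0.00205 in female cultures, again with an exact p = 0.8, and both had an adjusted p of 0.8 over the 2 tests. With 3 against 2 libraries there are too few assignments for this test to reach 0.05, so the design cannot show a sex difference at that level. The female cultures ran from 0.00286% to 0.0953% for PB.25257. Sex also goes with site, since the male cultures came from upper palate, mouth rim and esophagus and the female ones from upper palate (0.00286% PB.25257) and ampullae (0.0953%).

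Within the loci, the main transcripts of PB.23354 had similar proportions in every tissue. At PB.23354 the transcript PB.23354.1 made up 44.2% to 53.2% of the locus in the 6 tissues (mean 50.4% ± 3.63, SD), PB.23354.13 made up 24.0% ± 2.44, PB.23354.16 made up 17.7% ± 2.65, PB.23354.18 made up 3.92% ± 1.39 and PB.23354.7 made up 2.26% ± 0.755. The first 3 of these held 92.2% of all counts of the locus. PB.23354.10 with 9 counts and PB.23354.14 with 5 were seen in tissues only, and the other 5 transcripts had 2 or 3 counts each, also in tissues only. Mouth rim had the lowest PB.23354.1 share and dorsal skin the highest, and their Wilson intervals overlapped (39.1 to 49.4 and 47.8 to 58.5).

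The few PB.23354 counts in cultures came from the abundant transcripts. Of the 22 counts in green cultures, 11 were PB.23354.1, 6 were PB.23354.16, 3 were PB.23354.18 and 2 were PB.23354.13. Both counts in white cultures were PB.23354.16. PB.23354.1 made up 50.0% of the green counts (Wilson 95% interval 30.7 to 69.3) and 50.6% of the tissue counts, so no difference in proportion was detectable at this depth. Only green ampullae culture 5 reached 10 counts, with 5 of PB.23354.1.

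PB.25257 was dominated by 1 transcript. PB.25257.6 held 90.6% of its counts over all libraries, and in tissues its share ran from 81.6% in esophagus to 95.8% in barbel (mean 89.3% ± 4.71, SD, n = 6). The rest of the tissue counts fell on PB.25257.12 (279 counts), PB.25257.9 (103), PB.25257.11 (101), PB.25257.15 (22) and PB.25257.1 (6). The esophagus was richest in the minor forms, with 9.20% PB.25257.12 and 5.66% PB.25257.9.

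Green cultures held few counts of the minor forms of PB.25257. In the 5 green cultures with 10 or more counts, PB.25257.6 held 98.2% to 100% of the locus (mean 99.5% ± 0.768, SD), and only 3 of the 437 counts in all green cultures, all PB.25257.12, were of another transcript. The difference from tissues was 10.2 percentage points with no overlap of the groups, and leaving out any 1 library left it between 8.70 and 11.6 points. Counting error was wide, with Wilson 95% intervals of 74.1 to 100 in upper palate culture 1 and 82.4 to 100 in the mouth rim culture. They were 93.6 to 100 in ampullae culture 6 and 90.7 to 99.7 in the esophagus culture. All of these take in the barbel value of 95.8%, and only that of ampullae culture 5 (97.5 to 99.8) does not. How many other loci separate in this way was not counted. The difference was singled out after its values were seen and is given with no test. White mouth rim culture 1, the single white culture with enough counts, had 87.5% PB.25257.6 (21 of 24 counts, Wilson 95% interval 69.0 to 95.7), and all white cultures together had 85.3% (69.9 to 93.6). The white values thus lay beside the white tissues, at a depth of 34 counts. Species and growth in culture cannot be told apart in the green comparison.

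**Figure D2:**
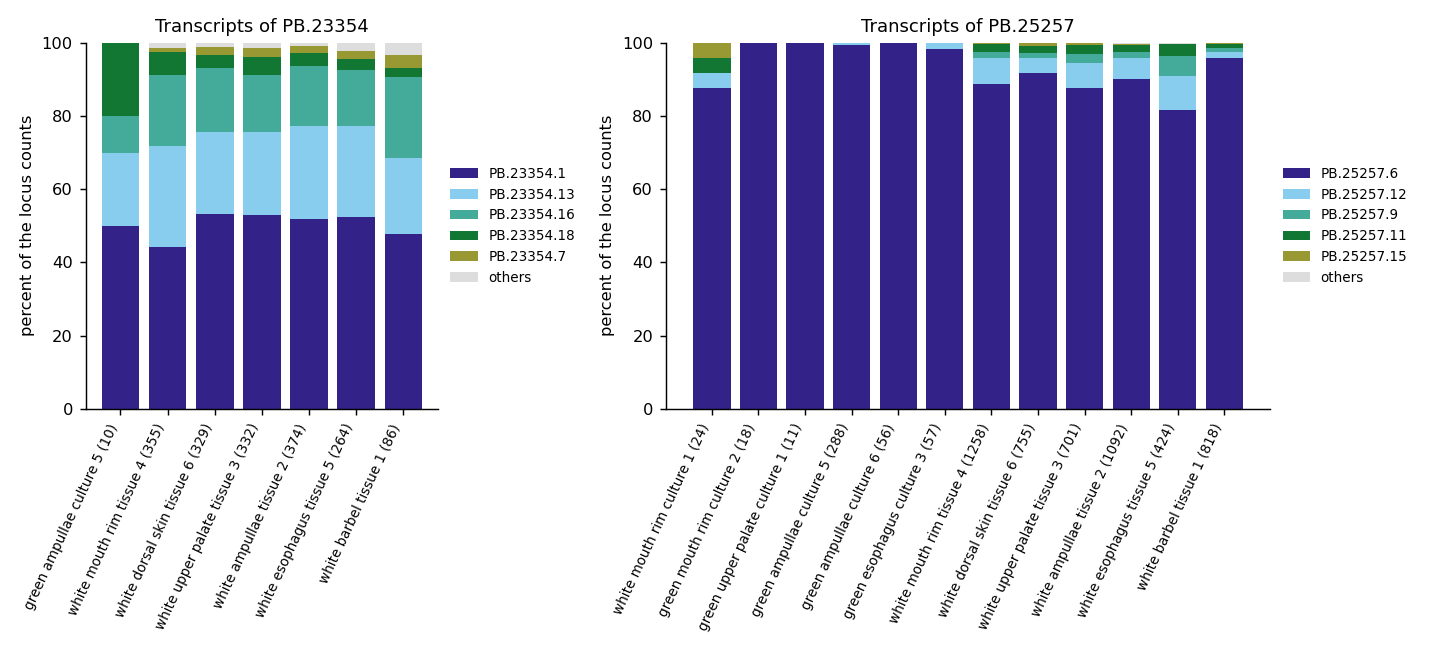
Share of each transcript in the counts of PB.23354 (left) and PB.25257 (right), in percent, in every library with 10 or more counts at the locus (counts in brackets under each bar). The bars of PB.23354 look alike across the 6 tissues, with PB.23354.1 at 44.2% to 53.2%, whereas for PB.25257 the 5 green cultures are almost wholly PB.25257.6 and the tissues hold 81.6% to 95.8% of it.

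Keratin names occur at 24 loci with 152641 counts, and keratin transcripts summed to 6.14% ± 3.07 of white cultures (SD, n = 5), 3.28% ± 3.27 of green cultures (n = 6) and 9.09% ± 5.04 of tissues (n = 6). Keratin shares ran from 3.62% to 9.69% in white and from 0.935% to 9.62% in green cultures, against 0.398% in the fibroblast and adipocyte library. PB.23354 and PB.25257 together made up 0% to 0.713% of the keratin counts of white cultures and 0.124% to 2.58% of those of green cultures. In tissues they made up 14.2% of keratin counts in mouth rim, 15.6% in ampullae, 17.6% in dorsal skin and 18.3% in upper palate, against 61.1% in esophagus (Wilson 95% interval 58.2 to 63.9) and 2.57% in barbel (2.41 to 2.74). As a share of keratin counts, the barbel thus lay beside the highest green culture, at 2.58%.

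Esophagus and barbel differed most in the keratin they used. The most abundant keratin locus of all, PB.22701, whose submitted sequence the study named as similar to the type I keratin 19, held 85.9% of keratin counts in barbel and 0.890% in esophagus. Ranks here count only transcripts named keratin. In esophagus tissue PB.25257 was the leading keratin locus, PB.23354 ranked 3 and PB.22701 was a trace, whereas in the 5 other tissues PB.22701 led and PB.25257 ranked 3 or 4. With all transcripts of a locus counted, PB.25558 came before PB.25257 in some tissues, at 1803 against 818 counts in barbel and 1032 against 755 in dorsal skin. The green esophagus culture was also poor in PB.22701, at 21.1% of keratin counts, and among cultures it had the highest joint share of PB.23354 and PB.25257, at 2.58% (2.03 to 3.27). In the other 10 epithelial cultures PB.22701 held 59.6% to 92.5% of keratin counts. The esophagus tissue had 29797 counts, the fewest of all libraries, but 1123 of them were keratin, enough for the intervals given.

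**Figure D3:**
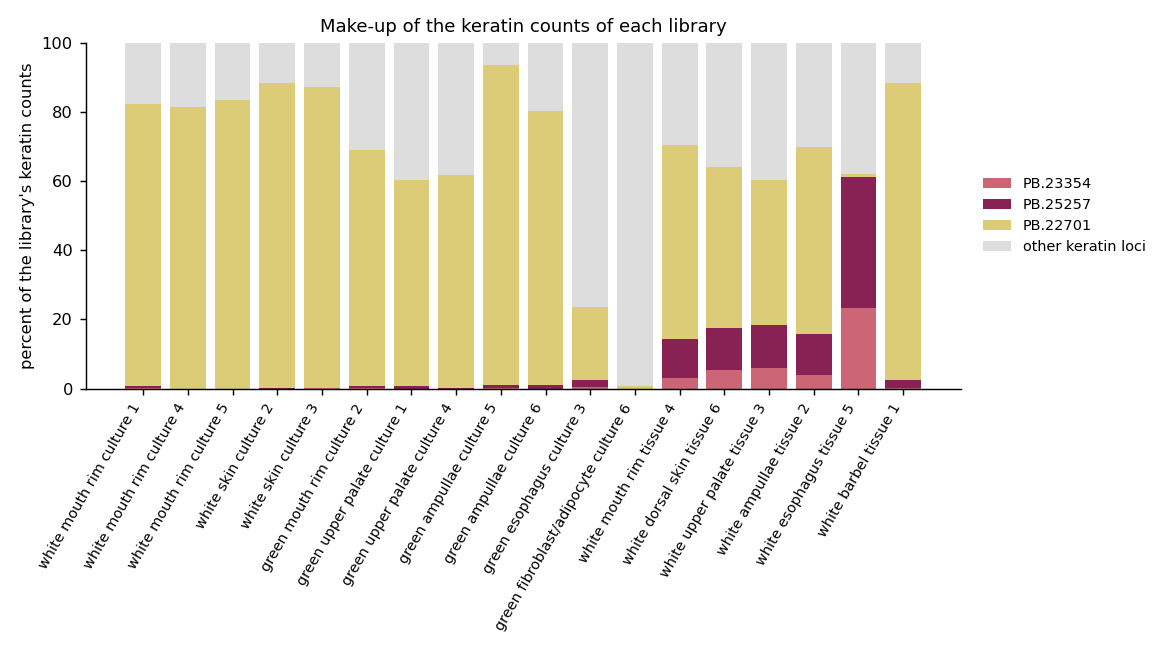
Make-up of the keratin counts of each library, in percent, with PB.23354, PB.25257, PB.22701 and all other keratin loci stacked. Both described loci are barely visible in cultures (at most 2.58% together) and in the barbel (2.57%). They make up 14.2% to 18.3% of 4 tissues and 61.1% of the esophagus. PB.22701 is the leading locus outside both esophagus libraries and the fibroblast and adipocyte library.

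The other keratin loci that were tested had smaller fold changes between culture and tissue than PB.23354 and PB.25257. That order follows from the choice of those 2 loci by their low share in cultures, so nothing is read from it. Of the 22 keratin loci other than PB.23354 and PB.25257, 6 passed the filter on low counts in white cultures against tissues, and by edgeR's quasi-likelihood test with Benjamini-Hochberg adjustment 1 rose, 3 fell and 2 were not called, where 27.5% of all loci tested were called higher and 29.4% lower. The 1 that rose, PB.25400, passed the filter through white cultures alone, so nothing is read from its call. The median log2 fold change of the 6 loci was -1.65, beside -0.05 for all loci tested. PB.25558, named as similar to the type II keratin 8 in the sequences submitted by the study, fell with a log2 fold change of -2.96 ± 0.49 (adjusted p = 0.000104), to a mean of 0.158% in white cultures against 0.967% in tissues. PB.25399, of the same kind, fell by 2.26 ± 0.52 on the log2 scale (adjusted p = 0.00152), and PB.20744 fell by 2.23 ± 0.61 (adjusted p = 0.00523). These 3 calls held in all 16 alternative fits. On the same scale of mean shares PB.25399 had 0.0266% against 0.0992% in tissues and PB.20744 0.349% against 1.25%, where PB.25257 was 142-fold and PB.23354 929-fold lower in white cultures.

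PB.25400 went the other way. It rose in white cultures with a log2 fold change of 4.02 ± 0.65 (adjusted p = 9.4e-05), to a mean of 0.0721% against 0.00447% in tissues. All 6 tissues together held only 20 of its counts, so it passed the filter on low counts through white cultures alone. A locus that passes in this way could hardly be called lower, so nothing is read from this call. PB.25400 was also present in the fibroblast and adipocyte library, at 213 counts or 0.0877%. PB.22701 had 5.15% ± 2.47 in white cultures and 5.50% ± 5.20 in tissues, a log2 fold change of -0.43 ± 0.83 (adjusted p = 0.676), and PB.22698, similar to the type I keratin 13, had -1.06 ± 1.03 (adjusted p = 0.397). Neither was called in this fit or in any alternative, over which PB.22698 ran from -1.44 to 1.07 on the log2 scale. Sturgeon genomes are polyploid and keratins are similar to each other, so reads of near-identical copies may be split between loci, and values of single keratin loci are uncertain to that extent. At PB.25558 only 4820 of 9523 counts are on transcripts named keratin, while the fit used the whole locus.

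In green cultures against white tissues 5 of the 22 other keratin loci were tested, of which 0 rose, 3 fell and 2 were not called (26.6% of all loci higher and 24.4% lower), with a median log2 fold change of -2.40 beside 0.18 for all loci. None of the 5 was higher at an unadjusted p under 0.05 or by DESeq2 either (0 by both). The log2 fold change of PB.25399 was -3.74 ± 0.50 (edgeR adjusted p = 7.8e-06), that of PB.25558 was -3.26 ± 0.48 (adjusted p = 2.4e-05) and that of PB.20744 was -2.24 ± 0.50 (adjusted p = 0.00128). PB.22698 had a log2 fold change of -2.40 ± 1.02 (adjusted p = 0.0576) and PB.22701 of -1.41 ± 0.97 (adjusted p = 0.237). PB.22698 was called lower in 5 of 17 alternative fits (edgeR or DESeq2 adjusted p from 0.00341 to 0.381), among them those without green upper palate culture 4 or without the mouth rim, upper palate or esophagus tissue, and PB.22701 in 1, the fit without green ampullae culture 5 (adjusted p from 0.0400 to 0.496 over the 17). Between green and white cultures 6 were tested, of which 0 were higher in green (0 also at an unadjusted p under 0.05 and by DESeq2) and 2 were lower (27.8% of all loci higher and 29% lower), with a median log2 fold change of -1.26 beside 0.11 for all loci. These were PB.25399 at -1.61 ± 0.46 (adjusted p = 0.00796) and PB.25400 at -2.74 ± 0.63 (adjusted p = 0.00177). With a stricter filter PB.14473 was called higher in green than in white cultures (edgeR log2 fold change 3.00 ± 0.94, adjusted p = 0.0130), and with no filter on low counts 5 keratin loci were called higher in green cultures than in tissues and 2 higher than in white cultures.

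**Figure D4:**
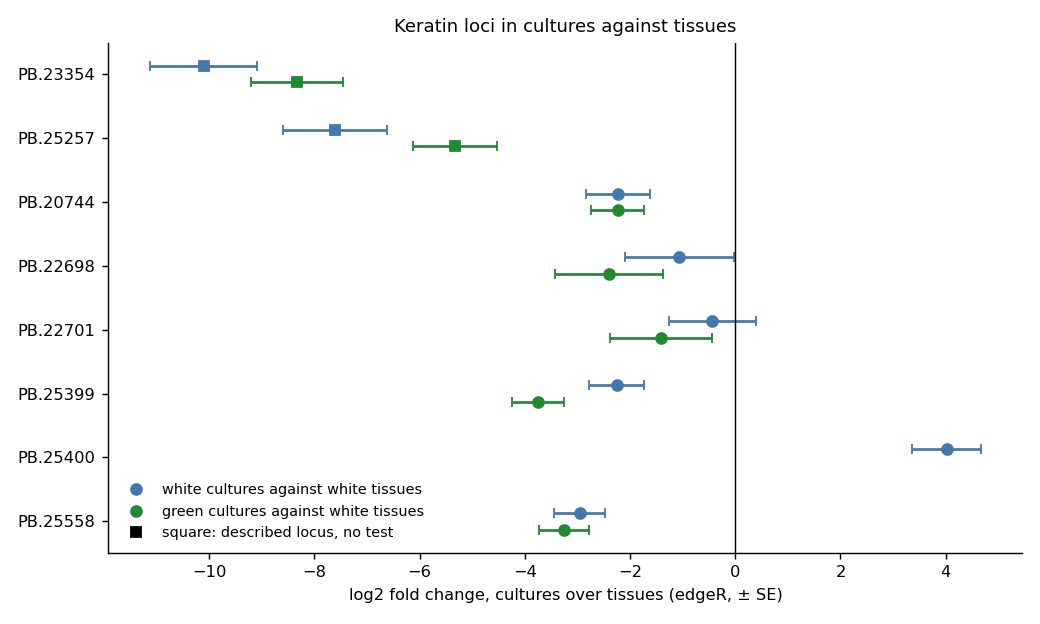
Log2 fold change (± SE) of keratin loci from edgeR fits, white cultures over white tissues in blue and green cultures over white tissues in green, with the 2 described loci as squares and no test. PB.23354 at -10.11 and -8.33 and PB.25257 at -7.60 and -5.32 lie left of all other tested keratin loci, which run from -3.74 to 4.02. The 2 loci were chosen for their low share in cultures, so nothing is read from that order.

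The remaining keratin loci with 100 or more counts did not pass the filter on low counts in white cultures against tissues. PB.14473 had 11 counts in white cultures, 254 in green cultures and 2 in tissues, and 171 of the green counts were in ampullae culture 5. PB.20745, similar to keratin 19, had 137 counts in white cultures, 2 in green cultures and 89 in tissues, and PB.20749 had 148, 64 and 17. Without the filter edgeR called PB.20749 higher in white cultures than in tissues, with a log2 fold change of 3.08 ± 0.55 (adjusted p = 9.1e-07), and did not call PB.14473 (adjusted p = 0.140) or PB.20745 (0.84 ± 0.47, adjusted p = 0.191). These rare loci thus varied by species and library, and none was high in tissues alone. PB.10358, with 1 count in white cultures, 2 in green cultures and 39 in tissues, fell short of 100 counts and did not pass the filter. Its mean share was 0.000116% in green cultures against 0.00565% in tissues. This relative drop was larger than that of PB.25257 there, but it rests on 2 counts. A small locus, PB.23434, matched the sterlet proteins of both PB.23354 and PB.25257 with 1 transcript each, and its 4 counts were all in tissues, so the assignment of reads to either locus could in principle be shared with it, at that size.

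Desmosome proteins anchor keratin filaments at the cell membrane. Of 14 desmosome loci, 6 were tested in white cultures against tissues, with 0 higher, 3 lower and 3 not called, and a median log2 fold change of -0.36 beside -0.05 for all loci (27.5% of all loci higher and 29.4% lower). At an unadjusted p under 0.05 by edgeR 0 were higher too, while DESeq2 called 2 higher and 2 lower. PB.21755, a plakophilin 1-like protein of the desmosomal plaque, fell by 1.23 ± 0.49 (adjusted p = 0.0410), a call kept in 6 of 16 alternative fits (adjusted p from 0.00738 to 0.153). The desmoplakin-like PB.3216, which ties filaments to the plaque, fell by 1.78 ± 0.53 (adjusted p = 0.00891, 15 of 16 alternatives called), and the desmocollin 1-like cadherin PB.4153 fell by 1.80 ± 0.43 (adjusted p = 0.00194). In this fit all 3 fold changes were smaller than those of PB.23354 and PB.25257, which were chosen for a large fall. In green cultures against white tissues the edgeR log2 fold change of PB.3216 was -5.41 ± 0.59 (adjusted p = 1.1e-06). That lay beside -5.32 ± 0.79 for PB.25257 and short of -8.33 ± 0.88 for PB.23354. PB.21755 had -4.85 ± 0.58 (adjusted p = 3.1e-06), while the desmocollin 3-like PB.3573 rose by 2.92 ± 0.41 (adjusted p = 1.5e-05). The median of the desmosome loci tested there was -3.60, beside 0.18 for all loci.

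Of 10 loci of the cornified envelope, the protein shell that transglutaminases cross-link under the membrane of mammalian keratinocytes, 4 were tested in white cultures against tissues, with 3 higher and 1 lower, and a median log2 fold change of 1.08 (27.5% of all loci higher and 29.4% lower). The envoplakin-like PB.15638, a scaffold protein of that shell, rose by 2.01 ± 0.49 on the log2 scale (adjusted p = 0.00233). PB.24903, which holds transglutaminase transcripts beside those of an unrelated prenyl transferase, rose by 1.15 ± 0.34 (adjusted p = 0.00781). The fit used the whole locus, so its values cannot be assigned to the transglutaminase transcripts. PB.13556, named periplakin after another plakin of that shell, rose by 1.02 ± 0.38 (edgeR adjusted p = 0.0298), a call kept in 8 of 16 alternative fits (adjusted p from 0.00181 to 0.132). The periplakin-like PB.27199 fell by 3.05 ± 0.38 (adjusted p = 1.1e-05). In green cultures against tissues 1 of 4 tested desmosome loci was higher and 3 lower (26.6% and 24.4% of all loci), and of 4 envelope loci 0 were higher (1 at an unadjusted p under 0.05 and 1 by DESeq2) and 1 lower. Between green and white cultures 1 of 5 desmosome loci was higher and 4 lower (27.8% and 29% of all loci), and of 4 envelope loci 0 were higher (0 at an unadjusted p under 0.05 and by DESeq2) and 1 lower. That envelope locus was PB.24903 (edgeR log2 fold change -1.43 ± 0.26, adjusted p = 0.000258), whose values cannot be assigned to the transglutaminase transcripts.

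Some loci had a pattern close to that of the described keratins. Over the 17 epithelial culture and tissue libraries, on a log2 scale and among 3376 loci with 100 or more counts, the 5 nearest to PB.23354 were PB.6080, a catalytic subunit of the calcium-activated protease calpain 2 (Pearson r = 0.979), PB.23798, similar to the epithelial transcription factor Elf-3 (r = 0.968), PB.28660, an uncharacterized protein (r = 0.967), PB.16250, similar to the nucleolar protein nucleolin (r = 0.958), and PB.11372, similar to an RNA-binding protein named after plasminogen activator inhibitor 1 (r = 0.957). PB.23798 had 3 counts in white cultures, 9 in green cultures and 162 in tissues. PB.6080 had 1, 8 and 147. Both were thus rare in culture too, but far less abundant in tissue than PB.23354 with its 1740 counts.

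For PB.25257 the nearest was PB.23354 (r = 0.921), then PB.11372 (r = 0.918), PB.28660 (r = 0.911), the unnamed PB.16612 (r = 0.910) and PB.4422, a lysozyme C of antibacterial defence (r = 0.902). PB.4422 had 71 counts in white cultures, 144 in green cultures and 2371 in tissues. These likenesses are a description with no test. Within the 6 tissues alone the r with PB.23354 was 0.955 for PB.6080, 0.952 for PB.16250, 0.948 for PB.23798, 0.940 for PB.11372 and 0.659 for PB.28660. The r with PB.25257 within tissues was 0.904 for PB.23354, 0.808 for PB.11372, 0.541 for PB.28660, 0.189 for PB.4422 and 0.114 for PB.16612, so the likeness held among tissues for some of these loci and was weak for others.

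Markers of other cells also differed between cultures and tissues. Immune markers (22 loci matched by name, 3 at 0 in cultures and 8 at 0 in tissues, some of them not specific to immune cells) summed to 0.0124% to 0.0610% in epithelial cultures and 0.0988% to 0.546% in tissues, with no overlap. The leading one, PB.14131, the class II histocompatibility gamma chain of antigen-presenting cells, had 20 counts in epithelial cultures and 1552 in tissues. Some went the other way: PB.18123, similar to immunoglobulin-binding protein 1, had 382 counts in epithelial cultures and 16 in tissues, and PB.9347 had 20 and 0. Among tissues the immune sum was highest in mouth rim (0.546%), followed by upper palate (0.330%), barbel (0.236%), ampullae (0.169%), esophagus (0.124%) and dorsal skin (0.0988%). Mucous secretion markers (10 loci, 4 at 0 in cultures and 1 in tissues) summed to 0.000870% to 0.122% in epithelial cultures and 0.00929% to 0.315% in tissues. Different loci carried most of the sum on each side. The mucin 2 loci PB.13250, PB.13249 and PB.18995 had 147, 51 and 40 counts in tissues and 0, 1 and 0 in epithelial cultures. The anterior gradient locus PB.4814 had 29 in tissues and 304 in epithelial cultures, and the trefoil factor locus PB.8449 had 47 and 65. The mucous sum was highest in the esophagus both among tissues (0.315%) and among cultures (0.122%), and the esophagus was also the tissue with the highest PB.23354 share. The other tissues had a mucous sum of 0.126% in upper palate, 0.0852% in mouth rim, 0.0148% in dorsal skin, 0.00979% in barbel and 0.00929% in ampullae, and the other epithelial cultures at most 0.00816%. The part of these cells in the levels of PB.23354 and PB.25257 was not tested, and in bulk RNA fewer cells of a type and less RNA per cell cannot be told apart.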

How the data were processed

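RNA from 18 sturgeon libraries was sequenced as PacBio Iso-Seq. The authors deposited whole-number counts of full-length reads per transcript, made with the IsoSeq3 pipeline, alignment to the sterlet genome, filtering with Sqanti3 on supporting reads and naming by blastp against sterlet proteins. The aligner is not given in the sources used here. The lowest sum of a deposited transcript was 2 counts. Transcripts named keratin do not carry the keratin type in the deposited table, so types I and II could not be taken from it.

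Counts were summed per locus and divided by the library total, with Wilson 95% intervals for single shares and exact Poisson-based intervals for pooled ratios. Loci were tested with edgeR 4.0.16 (R 4.3.3, limma 3.58.1; TMM, filterByExpr, quasi-likelihood test, FDR 0.05), with DESeq2 1.42.0, no filter, a stricter filter, no TMM, sample number as a block and each library left out as alternatives. The code was tested on simulated data. Exact permutation tests used scipy 1.17.1 (Python 3.11.15, numpy 2.4.6, pandas 2.3.3). A pseudocount of 0.001% was used on log2 shares.

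The loci and lists were chosen with earlier results of these data known. The text names both loci and their most abundant transcripts (the 8 of most counts, where counts above 3 tell them apart), other keratin loci with 100 or more counts, the 5 loci of most similar pattern, up to 6 desmosome and envelope loci called in white cultures against tissues, and leading markers. PB.13556, PB.23434, PB.10358, PB.18123, PB.9347 and the prenyl transferase note were added after their values were seen. The same holds for PB.3573, the green values of desmosome loci and the named mucous loci.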

Additional observations from a re-analysis of the deposited data

Results flagged for a closer look

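In groups of 4 to 10 libraries, a library was singled out where its gap to the nearest of the others was large against the range of the group (Dixon's 95% limit). Of 40 groups of values examined, 9 held such a library, and chance alone flags about 1 in 20 groups, many of which share libraries here.

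White mouth rim culture 1 stood apart from the other 4 white cultures in PB.25257 (0.0248% of its library) and in the joint share of PB.23354 and PB.25257 in keratin counts (0.713%). Among tissues the esophagus stood apart in that joint share (61.1%), and the barbel in the ratio of PB.25257 to PB.23354 (9.51).

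Green ampullae culture 5 stood apart from the other green cultures in the keratin loci PB.14473 (0.0566%), PB.20749 (0.0182%) and PB.22701 (8.91%), and it also had the highest PB.25257 share of all cultures without passing the limit there. Green upper palate culture 4 stood apart in PB.22698 (0.510%). For PB.14473 the ampullae tissue was the one tissue with any counts (0.00265%, 2 counts).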

How the results depend on the processing

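All 64 alternative values of the mean shares of PB.23354 and PB.25257 stayed within 1 SD of the values given. The alternatives took named transcripts only as the total, dropped transcripts under 10 counts, used TMM totals, left out single libraries or the dodecaploid culture, or kept only mouth rim and skin. In cultures the SD exceeded the mean, so this limit could not flag a fall. The white PB.25257 mean went from 0.00678% to 0.00227% without mouth rim culture 1 and still lay within it. Log2 fold changes of PB.25257 moved by more than their standard error in 5 fits: -8.61 with the sample number as a replicate block and -9.05 without mouth rim culture 1 in white cultures against tissues, -4.52 without a filter and -6.33 without ampullae culture 5 in green cultures against tissues, and 3.74 without white mouth rim culture 1 in green against white cultures. Numbers of loci called stayed within 1.5 times except without a filter on low counts, which tested far more loci and called 2691, 4148 and 3551 in white cultures against tissues, green cultures against tissues and green against white cultures. The fits given above called 1060, 920 and 1208. Without that filter 5, 8 and 7 other keratin loci were called lower and 4, 5 and 2 higher, against 1, 0 and 0 higher with it, and a stricter filter called 1 higher in green against white cultures. With the replicate block 4 keratin loci fell in green against white cultures, and the loci called numbered 908, 856 and 1208. The numbers do not pair the libraries: correlations of same-numbered deviations ran from -0.255 to 0.177. Leaving out each library gave 836 to 1074, 913 to 1073 and 1030 to 1315 calls, and 3, 3 to 4 and 2 to 3 keratin loci lower. The PB.25257.6 difference was 10.1 points with only transcripts of 10 or more counts and 8.70 to 11.6 points with each library left out. Leaving out single libraries for this difference and for the keratin counts was chosen after seeing the data. The exact permutation test of male against female cultures gave p = 0.8 on the log2 scale too. By Spearman rank and within tissues other loci came nearer: PB.6080 ranked 53 and 11 for PB.23354.

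Depth limits PB.23354 in cultures, where 0 to 10 counts a library leave transcript use and species differences undetectable. Each tissue site has 1 library, white and green cultures share 1 site, and reads of both species were placed on the sterlet genome, whose effect on the species comparison was not tested. Tissues and cultures were numbered as separate sets of libraries, so any difference between those sets cannot be told apart from growth in culture. Green cultures other than ampullae culture 6 were also numbered apart from the white cultures. For those, any difference between sets cannot be told apart from species.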
